A study of Mus musculus with 6 samples.

Results

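The genes described are 48 cell cycle progression genes, of 15118 genes in the deposited table, found by their symbols. They were divided by the phase at which their products act into 22 genes of G1/S and DNA replication and 26 genes of G2/M. The RNA came from mouse embryos of the Black-Swiss strain at E12.5, 1 whole heart per library and 3 libraries for each genotype. The 3 control hearts were NKX2-5 Cre/WT with Hif1a WT/flox, and the 3 mutant hearts were NKX2-5 Cre/WT with Hif1a Null/flox. All 6 hearts therefore carried Cre in Nkx2-5, a gene of cardiac progenitors and heart muscle, as well as a floxed Hif1a allele, which Cre can recombine only in those cells and their descendants. The other cells of a mutant heart would not express Cre but still carried the null allele. The Hif1a product is the part of the transcription factor HIF1 that responds to oxygen. The hearts are called controls 2, 5 and 9 and mutants 5, 8 and 10, after the numbers in their labels. The labels name separate hearts and nothing further, and the p-values speak for the spread among these 6 libraries.

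A dividing cell makes D-type and E-type cyclins with their kinases to leave G1, loads the MCM helicase on DNA, copies it in S phase, and then builds cyclin A and cyclin B kinase activity to enter mitosis. Genes of the first step are classically controlled by E2F factors, whereas genes of mitosis are switched on later through CCAAT boxes, which bind NF-Y, and through an element called CHR, which is bound by MuvB complexes. Embryonic heart muscle cells still divide at this stage, as do the endocardial, epicardial and mesenchymal cells around them. In bulk hearts, fewer cycling cells and less RNA per cycling cell cannot be told apart.

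The promoters took no part in choosing the genes, and their letters are shown because genes of the 2 phases are known for different elements. RefSeq promoter windows (build GRCm38.p6), from 250 bases before to 50 bases after a gene's start, were at hand for 37 of the 48 genes. Of 20 G2/M genes with a window, 18 held CCAAT, 16 (80.0%) held CHR (TTTGAA or TTCGAA) and the same number held both. Of 17 G1/S genes, 10 held CCAAT, 4 held CHR and 4 held both. The E2F letters TTTCCCGC, TTTCGCGC, TTTGCCGC or TTTGGCGC were found in 8 of 17 G1/S genes (47.1%) and in 1 of 20 G2/M genes, Cdk1. Both strands were searched, and a gene was counted when any of its windows held the letters. Among 8859 tested genes with a window, CCAAT was held by 43.7%, CHR by 16.1%, both by 7.10% and E2F letters by 4.92%. A match is a description of these letters and not a binding site.

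The 3 most highly expressed G2/M genes whose windows hold CCAAT and CHR are printed 5′ to 3′ to show how the elements lie together, with CCAAT and CHR matches of either strand in capitals and all other letters in lower case.
Cdk1 (chr10:69352863-69353162, minus strand): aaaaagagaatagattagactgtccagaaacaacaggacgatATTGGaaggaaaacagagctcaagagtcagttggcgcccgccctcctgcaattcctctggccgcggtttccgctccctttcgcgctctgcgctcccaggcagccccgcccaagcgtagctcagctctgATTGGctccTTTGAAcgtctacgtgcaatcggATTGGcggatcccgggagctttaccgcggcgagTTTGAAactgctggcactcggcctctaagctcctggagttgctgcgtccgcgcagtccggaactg
Top2a (chr11:99024140-99024439, minus strand): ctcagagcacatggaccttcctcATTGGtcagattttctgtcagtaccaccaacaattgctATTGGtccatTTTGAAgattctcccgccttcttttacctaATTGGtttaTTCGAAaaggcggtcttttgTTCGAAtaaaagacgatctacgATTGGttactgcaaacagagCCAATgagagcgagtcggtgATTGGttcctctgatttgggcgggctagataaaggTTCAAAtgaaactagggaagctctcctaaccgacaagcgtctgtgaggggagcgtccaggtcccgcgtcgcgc
Ube2c (chr2:164769679-164769978, plus strand): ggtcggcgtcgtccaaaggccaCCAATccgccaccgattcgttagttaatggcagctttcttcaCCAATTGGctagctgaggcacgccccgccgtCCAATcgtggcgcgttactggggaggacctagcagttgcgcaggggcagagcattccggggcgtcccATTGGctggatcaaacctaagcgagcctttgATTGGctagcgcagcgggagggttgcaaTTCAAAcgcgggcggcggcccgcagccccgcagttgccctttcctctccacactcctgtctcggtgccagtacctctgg

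The Top2a and Ube2c windows each hold 6 CCAAT matches, with 4 CHR matches in Top2a and 1 in Ube2c. Cdk1, the mitotic kinase, has 3 CCAAT and 2 CHR matches. The 3 most highly expressed G1/S genes with E2F letters were all subunits of the MCM helicase, and are printed with the E2F matches in capitals.
Mcm6 (chr1:128359656-128359955, minus strand): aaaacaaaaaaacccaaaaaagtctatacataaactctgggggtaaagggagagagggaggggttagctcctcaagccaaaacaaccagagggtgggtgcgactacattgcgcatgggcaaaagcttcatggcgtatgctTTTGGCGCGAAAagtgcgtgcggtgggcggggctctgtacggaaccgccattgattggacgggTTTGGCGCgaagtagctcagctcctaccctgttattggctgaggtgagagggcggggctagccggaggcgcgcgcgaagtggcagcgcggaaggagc
Mcm7 (chr5:138171834-138172133, minus strand): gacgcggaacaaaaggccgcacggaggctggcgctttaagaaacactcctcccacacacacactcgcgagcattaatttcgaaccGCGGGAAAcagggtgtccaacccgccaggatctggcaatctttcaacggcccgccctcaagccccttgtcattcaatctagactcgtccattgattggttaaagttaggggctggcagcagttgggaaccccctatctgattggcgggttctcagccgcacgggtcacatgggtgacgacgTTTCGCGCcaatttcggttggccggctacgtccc
Mcm3 (chr1:20820263-20820562, minus strand): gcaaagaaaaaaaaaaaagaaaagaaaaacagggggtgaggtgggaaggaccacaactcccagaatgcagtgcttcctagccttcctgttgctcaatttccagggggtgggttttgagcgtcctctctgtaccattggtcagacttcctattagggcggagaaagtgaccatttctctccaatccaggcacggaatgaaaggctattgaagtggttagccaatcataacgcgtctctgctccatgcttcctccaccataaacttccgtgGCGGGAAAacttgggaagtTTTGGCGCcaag

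In Mcm6 the 2 matches of the upstream run overlap on opposite strands, and the other match lies nearer the start. Of the 6 printed genes, Ube2c had a positive change in mutant hearts and the other 5 had negative ones, none past the test's threshold, as given gene by gene below.

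Expression is given in RPKM, the reads per kilobase of exon scaled to the reads of the library, and changes are mutant minus control on log2(RPKM + 1), which understates changes of weakly expressed genes. Values of single hearts follow the order of controls 2, 5 and 9 and then mutants 5, 8 and 10. Taken as RPKM, low values of the table implied from 101500000 reads (mutant 8) to 158800000 reads (mutant 10), and at least 374 reads behind any value of these genes. The counting error had a median SD of 0.015 over the tested members, against 0.11 within genotypes, both on the log2 scale. Other noise of the libraries is not in the counting error. All 12 heart muscle markers were tested, with summed levels from 20284 to 23291 RPKM. Of 8 liver, lung and neural markers 3 were listed, with sums of at most 5.79 RPKM. Hif1a itself measured 61.1, 46.4 and 46.4 RPKM in controls 2, 5 and 9, against 75.7, 55.0 and 77.7 RPKM in mutants 5, 8 and 10. A sum over its exons includes exons outside a deletion and does not check the genotypes. Transcripts of chromosome Y genes were near 0 in control 9 and mutant 8.

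Cell cycle genes were strongly expressed for this tissue. The median of their mean levels was 20.3 RPKM, against 5.79 RPKM for all tested genes, and 43 of 47 tested members lay above the latter. G1/S genes (median 18.9 RPKM) and G2/M genes (20.7 RPKM) had similar levels. E2f2, an E2F activator, was listed at 0.716 to 1.10 RPKM and was not tested, as fewer than 3 hearts reached 1 RPKM. The levels ran from E2f2 to Cdk4, the kinase partner of D-type cyclins, which measured 152, 157 and 157 RPKM in controls 2, 5 and 9, against 156, 152 and 152 RPKM in mutants 5, 8 and 10.

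**Figure D1:**
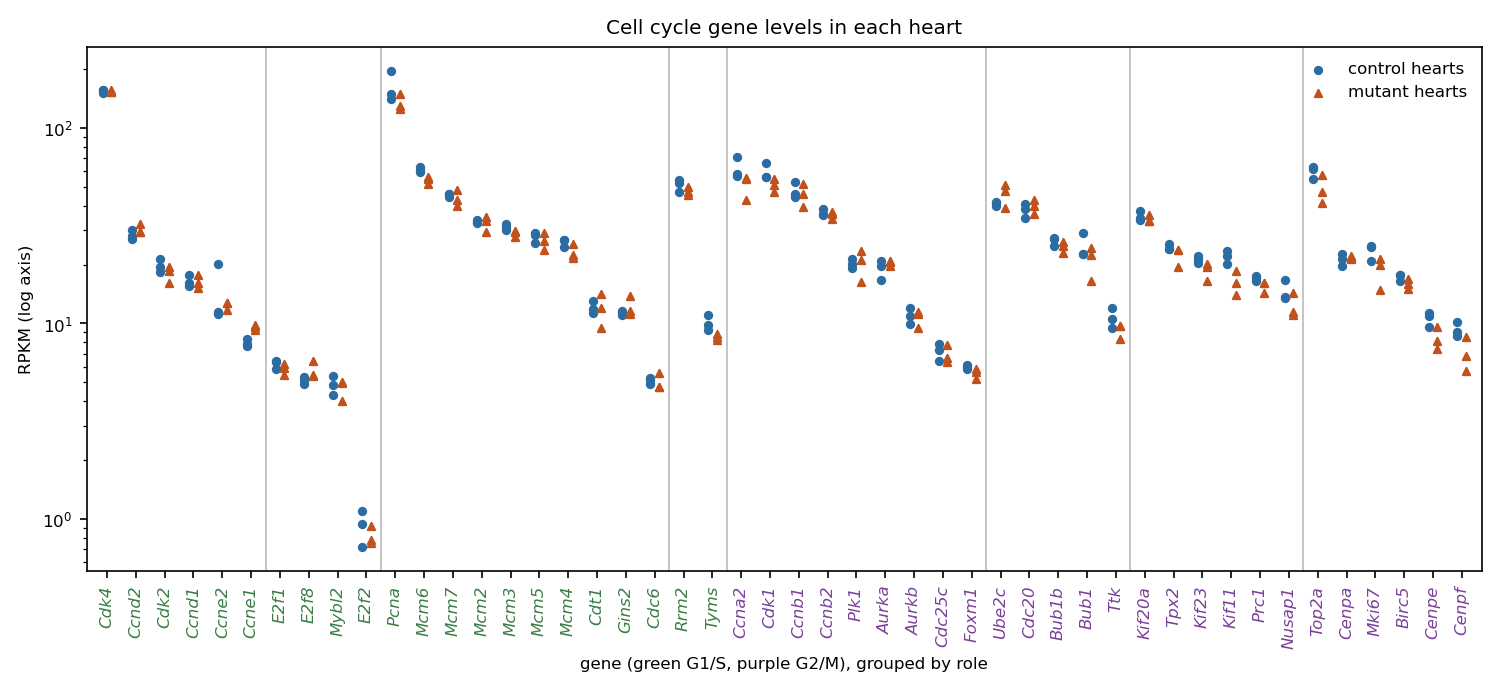
RPKM of each of the 48 genes (log axis) in 3 control hearts (circles) and 3 mutant hearts (triangles), grouped by role and ordered by level within a group. Cdk4 and Pcna lay above 100 RPKM and E2f2 near 1, and the genotypes overlapped for most genes.

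None of the 47 tested members passed the threshold (limma adjusted p under 0.05 over 13080 genes), and the smallest adjusted p was 0.20 (Kif11). Over all tested genes 107 passed, a share of 0.818%. The changes of the members leaned to lower values in mutant hearts: 39 of 47 were negative, against 57.4% of all tested genes. Their median was −0.09, against −0.03 over all tested genes. In 12 members (25.5%) every mutant heart lay below every control heart, against 9.43% of all tested genes, and in 2 members (4.26%) every mutant heart lay above, against 7.60%. An unadjusted p under 0.05 was found with a negative change in 5 members, Kif11, Cenpf, Mki67, Cenpe and Top2a, and with a positive change in Ccne1 alone. The shares of all tested genes were 6.26% and 4.92%. The 5 negative ones became 1 without mutant 8, 1 without mutant 10, 2 without control 2, 2 without control 5 and 8 without mutant 5.

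The intervals bound how large a change these hearts leave room for. All 47 95% intervals from limma lay inside ±1 on the log2 scale, 37 lay inside ±0.5 and 16 inside ±0.3. The lowest bound was −0.69, for Kif11, and the highest was 0.44, for Ccne1. A doubling or halving of RNA lies outside every one of these intervals on this scale, while 31 intervals reach past ±0.3.

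**Figure D2:**
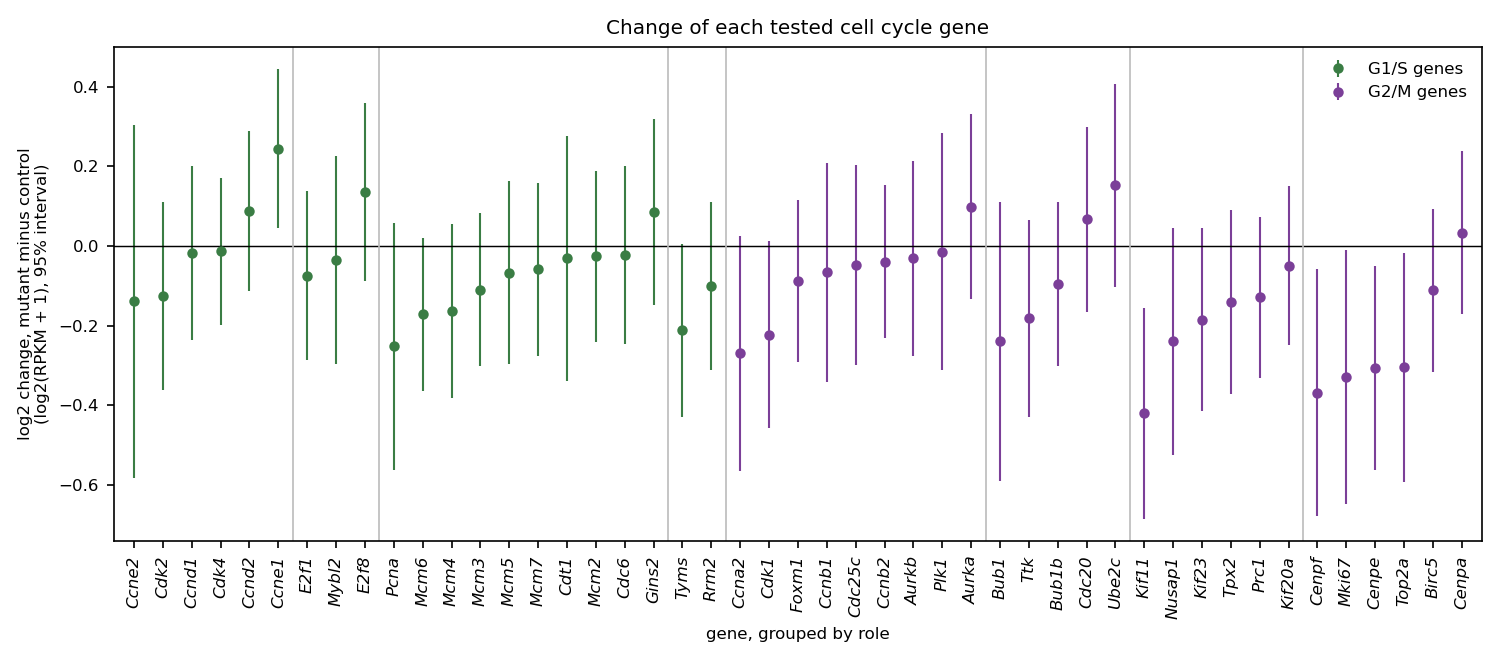
Log2 change of each tested gene (mutant minus control, on log2(RPKM + 1)) with its 95% interval from limma, grouped by role. The points run from −0.42 (Kif11) to 0.24 (Ccne1), and most intervals cross 0.

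Among the cyclins and kinases of G1 the changes were small, with a median of −0.02 and 4 of 6 negative. Ccne1 (cyclin E1, which activates Cdk2 at the entry to S phase; chr7:38097984-38107534 in mm10, minus strand) measured 8.33, 7.81 and 7.63 RPKM in control hearts and 9.65, 9.24 and 9.82 RPKM in mutant hearts. All 3 mutant hearts were above all 3 controls (log2 change 0.24 ± 0.09 SE, adjusted p = 0.34). Its paralogue Ccne2 measured 20.2 RPKM in control 2 and 11.1 and 11.4 RPKM in the other controls, against 12.7, 11.7 and 12.7 RPKM in mutants 5, 8 and 10. Control 2 stood apart, and the Ccne2 change of −0.14 became 0.12 without that heart. The ratio of Ccne1 to Ccne2 was 0.412, 0.701 and 0.670 in control hearts and 0.759, 0.787 and 0.775 in mutant hearts.

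Cdk2 itself measured 19.4, 21.4 and 18.4 RPKM in control hearts and 19.3, 16.1 and 18.6 RPKM in mutant hearts, with overlapping genotypes (log2 change −0.13). The D-type cyclins, which couple growth signals to the cycle, overlapped as well, with changes of −0.02 for Ccnd1 and 0.09 for Ccnd2. Cdk4 had a change of −0.01 (0.02 after median centring) and the narrowest spread of levels relative to its mean among these 6 genes. In Cdk4, Ccnd1 and Ccne2, 19.7%, 23.4% and 17.4% of exon bases overlap a gene on the opposite strand (Tspan31, LTO1 and Ints8). Reads of such partners cannot be told apart where strand was not used, which was not given in the sources used here. Here and below such shares are of all annotated exon bases of a gene. Those can exceed the exons listed for its RPKM, as in Ccnd1 (4709 against 3835 bases).

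Factors of the E2F family switch S-phase genes on or, in the case of E2f8, off. E2f8, a repressor of E2F targets, measured 5.30, 5.17 and 4.92 RPKM in control hearts and 5.38, 5.45 and 6.41 RPKM in mutant hearts. The genotypes did not overlap, although control 2 and mutant 5 differed by less than 0.1 RPKM (log2 change 0.14, adjusted p = 0.64). E2f1, an activator, measured 5.85, 6.38 and 6.43 RPKM and 5.46, 5.94 and 6.18 RPKM, with overlap and a change of −0.07. Mybl2, a MuvB partner in S phase, had a change of −0.04.

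The licensing and fork genes load the helicase and hold the polymerase, and 9 of 10 had negative changes, with a median of −0.06. Mcm6, a subunit of the helicase (chr1:128331590-128359664, minus strand), measured 63.5, 60.8 and 59.6 RPKM in control hearts and 56.1, 51.8 and 55.0 RPKM in mutant hearts, which did not overlap. Its change was −0.17 ± 0.08 (SE, adjusted p = 0.49). Mcm3 measured 31.2, 32.3 and 30.2 RPKM against 27.6, 29.3 and 29.7 RPKM, again without overlap, with a change of −0.11. The other printed window belongs to Mcm7, which overlapped (39.9 to 48.2 RPKM in mutant hearts, change −0.06). The 6 subunits of the ring are needed in equal numbers, and their changes ran from −0.17 (Mcm6) and −0.16 (Mcm4) to −0.03 (Mcm2), a spread that their intervals do not resolve.

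Pcna, the sliding clamp of the polymerase (chr2:132249162-132253314, minus strand), was the most abundant of the replication genes. Its level was 196 RPKM in control 2, 140 and 149 RPKM in controls 5 and 9, and 149, 125 and 129 RPKM in mutants 5, 8 and 10. Control 2 was again the highest heart, and mutant 5 lay level with control 9 (log2 change −0.25, adjusted p = 0.54). Without control 2 the Pcna change was −0.11, and without both control 2 and mutant 8 it was −0.06. The loading factors Cdc6 and Cdt1 had changes of −0.02 and −0.03. Gins2, a helicase partner, had the only positive change of this group (0.09), and 67.3% of its exon bases overlap Gse1 on the opposite strand.

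Both enzymes of nucleotide supply had negative changes. Tyms, thymidylate synthase (chr5:30058202-30073617, minus strand), measured 11.0, 9.85 and 9.27 RPKM in control hearts and 8.82, 8.19 and 8.55 RPKM in mutant hearts, all below the controls. Its change was −0.21 ± 0.10 (SE, adjusted p = 0.46). Rrm2, the regulated subunit of ribonucleotide reductase, measured 54.0, 46.9 and 52.2 RPKM and 45.3, 50.0 and 47.1 RPKM, which overlapped (change −0.10). Pseudogenes of Tyms and Pcna are annotated, and reads shared with them may be counted under either.

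Of the G2/M cyclins, kinases and their activators 8 of 9 had negative changes, with a median of −0.05. Cdk1 (chr10:69335146-69352938, minus strand) measured 66.2, 56.3 and 56.2 RPKM in control hearts and 54.6, 46.9 and 51.1 RPKM in mutant hearts. Ccna2, cyclin A2, measured 70.7, 58.0 and 56.9 RPKM and 55.7, 43.0 and 55.1 RPKM. In both genes the genotypes did not overlap, control 2 was the highest and mutant 8 the lowest heart, and the changes were −0.22 and −0.27 (adjusted p = 0.47 and 0.49). The Ccna2 change was −0.17 without control 2, −0.15 without mutant 8 and −0.05 without both, and the Cdk1 change was −0.15, −0.17 and −0.09. Ccnb1 and Ccnb2, the B-type cyclins that bind Cdk1, overlapped, with changes of −0.07 and −0.04. Pseudogenes of Ccnb1 and Ccnb2 are annotated too, with the same limit on shared reads. Foxm1, a transcription factor of G2/M genes, did not overlap, with 5.86, 6.10 and 5.97 RPKM against 5.21, 5.66 and 5.82 RPKM, at a change of only −0.09.

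Not all mitotic kinases had their lowest level in mutant 8. Plk1, which drives mitotic entry, measured 19.2, 20.2 and 21.3 RPKM in control hearts and 16.3, 23.4 and 21.2 RPKM in mutant hearts. Mutant 5 was the lowest and mutant 8 the highest of the 6 hearts, and the change was −0.01 (0.02 after median centring, 0.13 without mutant 5). Aurka and Aurkb, the Aurora kinases of the spindle poles and the centromere, had changes of 0.10 and −0.03. Cdc25c, which activates Cdk1, had a change of −0.05.

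The spindle checkpoint and APC/C genes hold or release anaphase, and 3 of 5 had negative changes, with none apart between genotypes. Bub1, a checkpoint kinase, measured 29.0, 22.8 and 22.7 RPKM in control hearts and 24.2, 16.4 and 22.4 RPKM in mutant hearts (log2 change −0.24). Ttk, which acts above it, measured 11.9, 10.6 and 9.53 RPKM and 9.71, 8.38 and 9.75 RPKM (change −0.18). Control 2 was the highest and mutant 8 the lowest heart in both. The Bub1 change was −0.13 without control 2, −0.08 without mutant 8 and 0.03 without both, and that of Ttk −0.11, −0.12 and −0.04. Both APC/C genes had small positive changes with overlapping genotypes. Ube2c, the ubiquitin-conjugating enzyme of the APC/C, measured 41.4, 39.7 and 41.7 RPKM and 38.9, 47.5 and 51.4 RPKM. Its change was 0.15 (adjusted p = 0.65), with mutant 5 below and the other mutants above every control. In Ube2c 22.8% of exon bases overlap Tnnc2, a troponin gene, on the opposite strand. Cdc20, the APC/C activator, had a change of 0.07 (adjusted p = 0.83) and its highest level in mutant 8. The Cdc20 change was 0.003 without control 2 and 0.011 without mutant 8.

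All 6 spindle motors and bundlers had negative changes, with a median of −0.16, and 4 of 6 were apart between genotypes and lower, against 9.43% of all tested genes. Kif11, the motor that pushes the spindle poles apart (chr19:37376403-37421859, plus strand), measured 23.4, 22.1 and 20.2 RPKM in control hearts and 18.6, 14.0 and 16.0 RPKM in mutant hearts. It was lower in every mutant heart than in every control, at 73.9% of the control mean (log2 change −0.42 ± 0.12 SE, unadjusted p = 0.0059, limma adjusted p = 0.20). Without mutant 8 its change was −0.32, and without both control 2 and mutant 8 it was −0.28. Nusap1, a microtubule bundler, measured 16.7, 13.5 and 13.7 RPKM and 14.3, 11.1 and 11.4 RPKM, with overlap (change −0.24, and −0.15 without control 2).

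Kif23 and Prc1, which organise the midzone between the separating chromosomes, and Tpx2, which activates Aurka on the spindle, did not overlap, with changes of −0.19, −0.13 and −0.14. Without mutant 8 the changes of Kif23, Prc1 and Tpx2 were −0.10, −0.08 and −0.05. For Tpx2 the highest mutant heart (23.7 RPKM, mutant 10) lay close to the lowest control (24.0 RPKM, control 9). Kif20a, another midzone motor, measured 33.8, 37.6 and 34.7 RPKM in control hearts and 35.8, 33.2 and 33.3 RPKM in mutant hearts. It overlapped, with a change of −0.05, and 29.3% of its exon bases overlap Cdc23 on the opposite strand.

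The centromere and chromosome genes had the most negative median of the 8 role groups, −0.31, with 5 of 6 negative. Cenpe, the kinetochore motor (chr3:135212537-135273611, plus strand), measured 10.9, 11.3 and 9.58 RPKM in control hearts and 9.56, 7.43 and 8.15 RPKM in mutant hearts. Cenpf, a large kinetochore protein (chr1:189640606-189688086, minus strand), measured 9.05, 10.2 and 8.64 RPKM and 8.58, 5.71 and 6.86 RPKM. Neither overlapped between genotypes, but control 9 and mutant 5 were within 0.1 RPKM of each other in both genes. The changes were −0.31 and −0.37, with adjusted p = 0.35 and 0.36. Without mutant 8 that of Cenpf was −0.25.

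Top2a, the topoisomerase that untangles sister chromatids (chr11:98992943-99024189, minus strand), measured 63.2, 61.8 and 54.8 RPKM in control hearts and 57.4, 41.4 and 47.1 RPKM in mutant hearts. Mki67, which encodes the Ki-67 protein used to stain cycling cells (chr7:135689784-135716361, minus strand), measured 24.7, 24.9 and 20.9 RPKM and 21.4, 14.8 and 19.8 RPKM. Mutant 5 lay above control 9 in both, and mutant 8 was the lowest heart. The change of Top2a was −0.31 (adjusted p = 0.42), and −0.20 without mutant 8. The change of Mki67 was −0.33 with all hearts (adjusted p = 0.43), −0.18 without mutant 8 and −0.43 without mutant 5. Birc5, or survivin, a partner of Aurkb, had a change of −0.11, and Cenpa, the centromeric histone, had a change of 0.03.

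**Figure D3:**
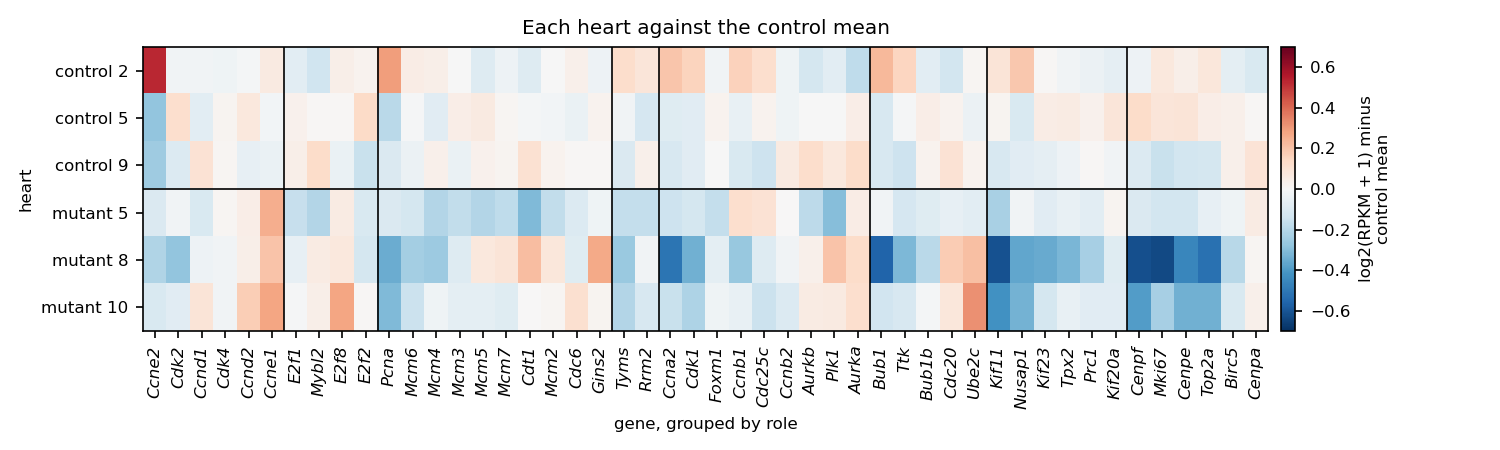
Difference of each of the 48 genes from the mean of the control hearts, on log2(RPKM + 1), in each of the 6 hearts, with blue for lower and red for higher. Mutant 8 is the lowest heart for 17 of 26 G2/M genes, and mutant 5 is the lowest for Mcm2, Mcm3, Mcm5 and Mcm7.

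The mutant hearts were not alike in which genes were lowest. Mutant 8 held the lowest level of the 6 hearts in 17 of 26 G2/M genes and in 5 of 21 G1/S genes. Mutant 5 held the lowest level in 10 of 21 G1/S genes, among them Mcm2, Mcm3, Mcm5 and Mcm7, and in 4 of 26 G2/M genes. Mutant 10 was the lowest heart in only 2 of 47 genes. Mutant 8 was also the highest heart in 7 genes, including Mcm2, Mcm5, Mcm7, Plk1 and Cdc20, and mutant 5 was the highest in none.

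The phase medians followed the same division. Relative to the control mean, the median of the G1/S genes in controls 2, 5 and 9 was −0.01, −0.01 and 0.01, while mutants 5, 8 and 10 had −0.12, −0.03 and −0.03. For the G2/M genes the controls had −0.01, 0.03 and −0.05 and the mutants −0.07, −0.25 and −0.10, in the same order of hearts. On this uncentred scale every mutant heart lay below every control heart in both sets. Over all tested genes the medians were −0.04, 0.04 and −0.01 in the controls and −0.00, −0.07 and −0.00 in the mutants, so that mutant 8 was low by that measure too. With each heart's all-gene median taken off, the G1/S medians were 0.04, −0.05 and 0.02 in the controls and −0.12, 0.05 and −0.03 in the mutants, which overlapped, with mutant 8 the highest heart. The G2/M medians were then 0.04, −0.02 and −0.04 against −0.07, −0.18 and −0.10, still apart. The choice of these genes was not independent of earlier results on the same hearts, so the order of the medians carries no test.

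G1/S genes as a whole had a median change of −0.06, with 17 of 21 negative. That median was −0.02 after median centring and 0.00 without mutant 5. In 3 of 21 (14.3%), Mcm3, Mcm6 and Tyms, the genotypes were apart and the mutant lower. G2/M genes had −0.12, with 22 of 26 negative and 9 (34.6%) apart and lower, where the share of all tested genes was 9.43%. The G1/S median minus the G2/M median was 0.06. Heart by heart that difference was 0.00, −0.04 and 0.06 in controls 2, 5 and 9, against −0.05, 0.22 and 0.07 in mutants 5, 8 and 10, which overlapped. Mutant 5 had lower G1/S than G2/M values and mutant 8 the reverse. The difference between the medians was about 0 without mutant 8 (−0.005) and without both control 2 and mutant 8 (0.002), and 0.16 without mutant 5.

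**Figure D4:**
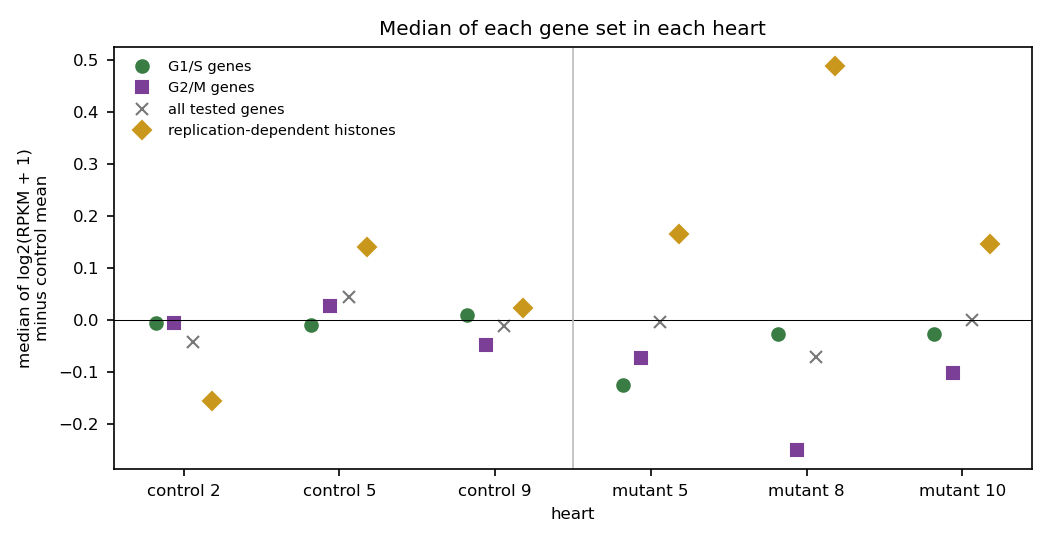
Median difference from the control mean, on log2(RPKM + 1), of G1/S genes, G2/M genes, all tested genes and replication-dependent histone genes in each heart. The G2/M median is lowest in mutant 8 (−0.25) and the G1/S median in mutant 5 (−0.12), and the histone median is highest in mutant 8 (0.49).

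Genes of a role group varied together to differing degrees within genotypes. Over the 6 hearts, after the genotype means were taken away, the mean pairwise correlation was 0.60 among the spindle motors and bundlers and 0.55 among the centromere and chromosome genes. It was 0.06 over all tested genes, 0.07 among G1/S genes, 0.14 among G2/M genes and −0.03 between both phases. Among role groups of G1/S, the E2F and MYB factors had 0.48, over 3 genes. Licensing and fork genes had 0.11, nucleotide supply 0.09, and the cyclins and kinases of G1 0.03. The G2/M cyclins, kinases and activators had −0.11, and the spindle checkpoint and APC/C genes −0.04. The gene sets also differ in length. The median exon length was 8382 bases for centromere and chromosome genes, 4368 for spindle motors and bundlers and 3417 for all tested genes. The part of length or of any single heart in these correlations was not tested. These values share 6 libraries and are a description.

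Transcript length moved with the changes. Tested protein-coding genes were divided into 5 groups by the length of the exons listed for them. From the shortest to the longest group the median change over all genes was 0.06, −0.01, −0.03, −0.06 and −0.09. The members in these groups numbered 3, 13, 16, 10 and 5, with medians of −0.04, −0.03, −0.08, −0.07 and −0.31. The 5 in the longest group, of at least 6373 bases, were Cenpf, Mki67, Cenpe, Top2a and Prc1, which include 4 of the 5 members with an unadjusted p under 0.05 and a negative change. All 5 were negative, as were 77.4% of all genes of that length, and 3 of 5 were apart and lower, against 13.1% of the group.

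In the longest group mutant 8 was the lowest heart over all genes as well (−0.19, against −0.04 and −0.03 in mutants 5 and 10), and the 5 members had −0.52 there. Set against the median of their own group of the 5 length groups, 34 of 47 members were lower, 22 of 26 in G2/M and 12 of 21 in G1/S. After each heart was centred within 10 finer length groups, the change of Kif11 was −0.38, of Cenpf −0.28 and of Cenpe −0.24. Mki67 then had −0.24 and Top2a −0.22, with unadjusted limma p of 0.060 and 0.075. Members with a negative change and an unadjusted p under 0.05 numbered 3 after this centring, against 5 before it. The part of length in the change of each gene was not tested.

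**Figure D5:**
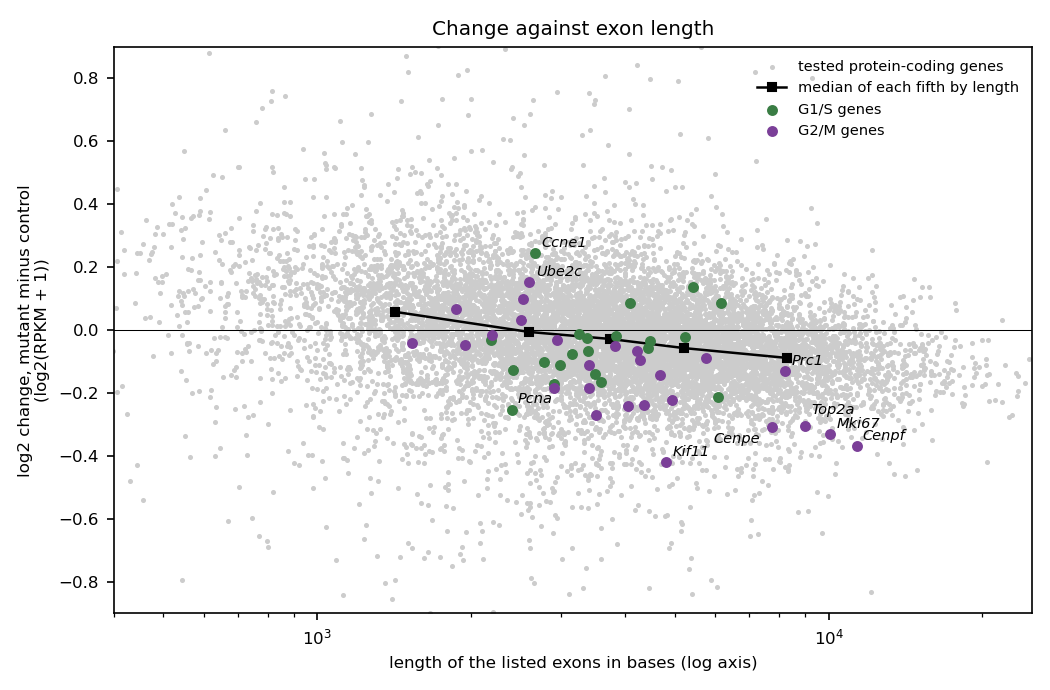
Log2 change (mutant minus control, on log2(RPKM + 1)) against exon length (log axis) for tested protein-coding genes (grey), G1/S genes (green) and G2/M genes (purple), with the median of each length group in black; the axes leave out genes beyond ±0.9 or outside the plotted lengths. The black line falls from 0.06 to −0.09, and Cenpf, Mki67, Cenpe and Top2a lie below it at the long end.

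Other measures of the libraries moved with the same hearts. Copies of 5S ribosomal RNA summed to 10.7, 31.2 and 71.9 RPKM in controls 2, 5 and 9, against 31.3, 192 and 116 RPKM in mutants 5, 8 and 10, with control 2 lowest and mutant 8 highest. Replication-dependent histone mRNAs, which have no poly(A) tail and are made in S phase, had 35 genes listed, of which 20 were tested. Of these 17 had positive changes, none past the threshold (smallest limma adjusted p = 0.11, 5 at an unadjusted p under 0.05). Only 15% were negative, against 57.4% of all tested genes. The tested histone genes are short, with a median exon length of 579 bases. Among all genes of the shortest length group 37.0% were negative, with a median change of 0.06, against 0.26 for the histones. The sum over all 35 was 43.3, 61.6 and 55.1 RPKM in control hearts and 60.6, 77.3 and 53.7 RPKM in mutant hearts, which overlapped. The part of these differences in the cell cycle values was not tested.

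Markers of macrophages and mesenchyme had lower sums in every mutant heart than in every control. Macrophage markers, all 10 listed and 9 tested, were negative in 9 of 9 and summed to 35.9 to 42.0 RPKM in control hearts and 12.8 to 29.2 RPKM in mutant hearts. All 7 mesenchyme markers were listed and negative, with sums of 406 to 468 RPKM against 231 to 344 RPKM. Mutant 10 was the lowest heart for both, whereas mutant 8 was the lowest for most G2/M genes. Endothelial and endocardial markers had 8 of 10 negative, with sums of 126 to 146 RPKM against 115 to 138 RPKM, and epicardial markers 5 of 6, with overlapping sums. Smooth muscle markers had 2 of 3 positive, with overlapping sums. Erythroid markers had 5 of 10 positive, with sums of 13964 to 16573 RPKM in control hearts and 11719 (mutant 5) to 21064 RPKM (mutant 8) in mutant hearts. Heart muscle markers had 7 of 12 positive. Of the liver, lung and neural markers the 2 tested were positive, Tubb3 (log2 change 0.46, limma adjusted p = 0.25) and Apoa2 (0.42, limma adjusted p = 0.33). Tubb3 was higher in every mutant heart (2.12 to 3.14 RPKM) than in every control (1.26 to 1.87 RPKM), whereas Apoa2 overlapped. Afp, listed but not tested, had a lower mean in mutant hearts (0.298 against 1.37 RPKM). None of these markers passed the threshold, and their part in the cell cycle values was not tested.

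Further genes of the pathway were read from wider lists. None of 17 other G1/S control genes passed, with 11 negative and a median of −0.05. Rb1, which holds E2F in check, measured 3.84, 3.14 and 3.00 RPKM in control hearts and 3.11, 2.12 and 2.41 RPKM in mutant hearts. Rbl2, its relative in the DREAM complex, was lower in every mutant heart (2.87 to 3.14 RPKM) than in every control (3.24 to 3.68 RPKM), whereas the repressor E2f7 overlapped.

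Of 38 other DNA replication genes 33 had negative changes, none past the threshold, with a median of −0.12. In 10 of them (26.3%) the genotypes were apart and the mutant lower. The shares over all tested genes were 57.4% negative and 9.43% apart and lower. Pola1, the catalytic subunit of the polymerase that starts new strands with primase, measured 6.87, 5.49 and 5.29 RPKM in control hearts and 4.68, 3.39 and 4.59 RPKM in mutant hearts. Pole, the leading-strand polymerase, measured 5.30, 5.44 and 5.19 RPKM and 4.25, 4.55 and 4.46 RPKM, with mutant 5 the lowest heart. Rfc1, of the clamp loader, was apart and lower as well (12.7 to 16.1 RPKM against 16.5 to 17.9 RPKM). The adjusted p of the 3 genes ran from 0.31 to 0.46.

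Of 57 other mitosis genes 48 had negative changes, none past the threshold, with a median of −0.13. In 14 of them (24.6%) the genotypes were apart and the mutant lower, again against 9.43% of all tested genes, of which 57.4% were negative. Kif15, a motor that works beside Kif11, measured 8.79, 8.93 and 7.87 RPKM in control hearts and 7.12, 5.85 and 6.42 RPKM in mutant hearts. Stil, a centriole assembly factor, measured 3.17, 3.46 and 3.04 RPKM and 2.37, 1.88 and 2.62 RPKM, and Ckap2, a spindle protein, was apart and lower too. Their adjusted p ran from 0.22 to 0.30, and mutant 8 was the lowest heart in all 3.

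Inhibitors of the cycle contained the only gene of these lists to pass. Gadd45a, a growth arrest gene, rose from 2.04, 1.49 and 1.70 RPKM in control hearts to 3.72, 4.44 and 4.55 RPKM in mutant hearts (limma adjusted p = 0.0070). It missed the threshold without mutant 10 (limma adjusted p = 0.0504) and when control 9 and mutant 8, the hearts without chromosome Y transcripts, were left out together (0.0685). Cdkn1a, or p21, measured 3.73, 5.25 and 4.41 RPKM against 6.50, 8.59 and 7.61 RPKM, and Cdkn1c, or p57, measured 205, 202 and 224 RPKM against 259, 387 and 322 RPKM. Both were higher in every mutant heart, with adjusted p = 0.077 and 0.12. Over the 12 inhibitors tested, 6 changes were negative and 6 positive. In 3 of the 12 (25%) every mutant heart lay above every control, against 7.60% of all tested genes. In 2 (16.7%) every mutant heart lay below, against 9.43%.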

How the data were processed

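Total RNA was extracted from whole hearts with TRIzol and made into Illumina libraries, per the labels' protocols. The submitters' processing notes name Trim Galore, TopHat2 and mm10 without versions. The counter was not given in the sources used here. RPKM values were deposited in 1 table, a unit read from the values since the header names none: in single-exon genes 89.0% to 96.4% of low values were whole multiples of a step within 0.1, against medians of 19.0% to 19.9% for other steps.

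The test was limma 3.58.1 (R 4.3.3, mean-variance trend) on log2(RPKM + 1) for 13080 genes reaching 1 RPKM in 3 or more hearts, two-sided, with Benjamini-Hochberg adjustment over all of them. It was tested on simulated data. Members and lists were chosen with earlier results of these data known, and lists are described by counts and medians. Values in every heart are given for the 2 genes with the smallest p and the most highly expressed of each of 8 role groups. They are also given for up to 3 genes of each of 5 other lists, except Rbl2 and Rfc1 (ranges) and E2f7 and Ckap2 (no values). Those of Mki67, Ccne2, Plk1, Mcm3 and Foxm1 were added after they were seen. The 3 histone genes that this rule names are in the closing section. Exon lengths are the table's (14480 genes) and positions are from GENCODE M21 (14877 identifiers). Figures were drawn with matplotlib 3.10.9 in Python 3.11.15.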

Additional observations from a re-analysis of the deposited data

How the results depend on the processing

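No cell cycle gene passed the threshold under any of 17 alternative settings, of which centring within 10 exon length groups was chosen after seeing the data. The count over all genes, 107, was 53 in the 4 hearts with chromosome Y transcripts and from 40 to 198 with each heart left out in turn (lowest without mutant 10, highest without mutant 5). The members' median of −0.089 was −0.054 after median centring, with 32 of 47 negative, −0.066 after centring by length, −0.061 with a pseudocount of 5, −0.126 after rescaling without haemoglobin genes, and −0.108 to −0.071 with each heart left out. The G1/S median of −0.058 was −0.101 after the haemoglobin rescaling and −0.083 to 0.002 with each heart left out, the last without mutant 5, when 30 of 47 members were negative. The G2/M median of −0.121 stayed between −0.162 and −0.079 in all settings, and the difference between both medians, 0.062, ran from −0.007 to 0.159. Members with an unadjusted p under 0.05 and a negative change numbered from 1 to 11, the last after the haemoglobin rescaling. Of 38 named genes, Cdkn1a and Cdkn1c passed the threshold without mutant 5 (limma adjusted p = 0.0410 and 0.0266) and Gadd45a lost its call in the 2 settings given above. The signs of Cdk4, Plk1, Bub1 and Ccne2, none called, turned in 7 of 637 values. No paired analysis was possible because the genotypes share a single sample number. The counting error of these genes was small beside the spread between hearts, and other limits were not compared.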

Other observations

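The histone genes with the smallest p were Hist1h2an, Hist1h2ah and Hist1h2ad, which encode H2A proteins packed on new DNA. Hist1h2an measured 1.16, 1.64 and 1.71 RPKM in controls 2, 5 and 9 and 2.77, 2.96 and 2.25 RPKM in mutants 5, 8 and 10. Hist1h2ah measured 0.788, 1.23 and 1.17 RPKM against 1.80, 1.88 and 1.72 RPKM, and Hist1h2ad 0.931, 1.29 and 1.08 RPKM against 1.72, 1.74 and 1.63 RPKM. All 3 were higher in every mutant heart than in every control, with limma adjusted p from 0.11 to 0.20, and control 2 was the lowest heart in each. Their coding sequences are near copies of other histone genes, so reads may be split between them. These levels lie close to the minimum of 1 RPKM for testing.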
